A study of Mus musculus with 115 samples.

Results

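The 7 genes described here, Fos, Fosb, Fosl2, Jun, Junb, Jund and Atf3, encode proteins of activator protein 1 (AP-1). They were taken by name from a deposited table of read counts with 22870 genes, and all 7 were in it. Each library is the cytosol of 1 granule cell of the mouse dentate gyrus, drawn into a patch pipette and sequenced. The mice carried Rbp4-Cre, and a retrograde AAV encoding EGFP had been placed in the right ventral hippocampus, so that a granule cell on the left turns green (EGFP+) when virus reached it from the other side. The left hippocampus received kainic acid (KA), which drives glutamate receptors and provokes seizures, or saline, each together with a Cre-dependent mCherry AAV, and cells were taken from that injected side 2 weeks later whether or not they showed mCherry. The groups were 27 KA EGFP+, 36 KA EGFP-, 5 saline EGFP+ and 27 saline EGFP- cells, 95 in all, and the age of the mice is not given in the sources used here.

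AP-1 is a pair of leucine zipper proteins, usually one of the Fos family with one of the Jun family, that binds DNA and switches genes on or off. Most of its genes are immediate early genes: in a resting neuron they are nearly silent, and strong synaptic input or a seizure turns them on within minutes, before any new protein is made. Fos is the usual marker of a recently active neuron, Fosb also gives a truncated and long-lived splice form (ΔFosB) known to build up in granule cells after repeated seizures, and Jund is held to be the steadiest member. Atf3 is a partner of Jun proteins that is induced by stress and axon injury. Gene counts do not separate the splice forms of Fosb.

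The labels do not name the mouse of a cell. The study states 9 mice for the KA EGFP+ cells and 3 for each other group, so each group is treated as 1 sample, no test was made, and what follows is a description of these cells. Depth was 1277978 to 56183007 counts a cell (median 5221619), with 1469 to 9945 genes counted. Prox1, a transcription factor that defines granule cells, was counted in 25 of 27 KA EGFP+, 24 of 36 KA EGFP-, 2 of 5 saline EGFP+ and 19 of 27 saline EGFP- cells. Calb1, which encodes their calcium buffer calbindin, was counted in 20, 25, 4 and 26 cells of these groups, and C1ql2, a synaptic protein gene of granule cells, in 12, 10, 5 and 25. The study states 57 passed saline EGFP- cells, and the table used holds 27. The quality labels of the cells are at odds with the deposited table of passed cells (13 of the 95 are labelled as failed), so the treatment and EGFP labels, which were used as given, carry that doubt. Cells are numbered by title in a first series (1 to 48, KA cells alone, 24 EGFP+ and 21 EGFP-) and a second series (higher numbers, with 3 KA EGFP+, 15 KA EGFP- and all saline cells). KA EGFP- cells of the first series had a median of 6974 genes with a count, those of the second 3707 and saline EGFP- cells 4448.

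Levels are log2(CPM+1), where CPM is counts per 1000000 of the cell's counts, and a difference is one of mean levels, with the SD over cells. A difference of at least 1 is called past the fold. The means include cells without a count, so such a difference can reflect how many cells have one and need not be 2 times in CPM. A gene is called counted in a cell if it has a count after the cell was thinned at random to 1000000 counts. To weigh the members against other genes, the share of all measured genes past the fold is given, a measured gene being one counted in at least 20% of the cells compared.

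Levels of the 7 genes in granule cells of saline mice spread widely. Per kilobase of exon, the median level in saline EGFP- cells was highest for Fos at 851 CPM, followed by Junb at 485, Atf3 at 395, Jund at 192, Jun at 58.7, Fosb at 13.7 and Fosl2 at 4.08 CPM per kb. In the KA EGFP- group Fos was again the highest, followed by Junb at 153 CPM per kb, Jund at 130, Atf3 at 111, Jun at 3.68, Fosb at 1.47 and Fosl2 at 0.420 CPM per kb. Within each gene the cells ranged over several orders of magnitude, so that neighbours in either order overlapped widely.

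Promoters are shown for the 5 of the 7 genes that hold TGACG or TGACATCA close to their start. TGACATCA is known from the Jun promoter itself, so its match there was given beforehand. The share of all promoters that hold either motif was not counted. The half-site TGACG is bound by CREB, the factor through which calcium and cAMP act on many immediate early genes, and TGACATCA is the site to which Jun with ATF2 binds on the Jun promoter. The windows below are the 150 bases before the RefSeq transcription start (GRCm38.p6), read 5′ to 3′ along the gene, with these motifs in capitals (CGTCA is TGACG on the other strand):
Fos: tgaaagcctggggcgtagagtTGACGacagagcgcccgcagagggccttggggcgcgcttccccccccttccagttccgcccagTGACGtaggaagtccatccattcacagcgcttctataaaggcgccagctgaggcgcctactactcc
Fosb: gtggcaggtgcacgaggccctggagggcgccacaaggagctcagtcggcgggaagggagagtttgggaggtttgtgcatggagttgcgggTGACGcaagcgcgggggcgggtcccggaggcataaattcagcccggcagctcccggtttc
Jun: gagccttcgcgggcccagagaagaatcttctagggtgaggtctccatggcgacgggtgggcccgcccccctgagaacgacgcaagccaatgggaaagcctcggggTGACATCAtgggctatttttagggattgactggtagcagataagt
Junb: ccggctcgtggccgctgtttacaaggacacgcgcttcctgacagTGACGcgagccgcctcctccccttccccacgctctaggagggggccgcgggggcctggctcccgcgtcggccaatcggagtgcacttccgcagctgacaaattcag
Atf3: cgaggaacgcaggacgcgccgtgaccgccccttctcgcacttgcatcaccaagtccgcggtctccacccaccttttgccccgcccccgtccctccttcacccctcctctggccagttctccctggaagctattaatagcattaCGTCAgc
They lie at chr12:85473740-85473889 on the plus strand for Fos, and on the minus strand at chr7:19310046-19310195 for Fosb, chr4:95052223-95052372 for Jun, chr8:84978749-84978898 for Junb and chr1:191183334-191183483 for Atf3. TGACG was in the 250 bases before the start of 4 of the 7 genes (Fos, which has it at 129 to 125 and at 66 to 62 bases before the start, Fosb, Junb and Atf3), and in 17.8% of 32851 promoters of that length searched on both strands. TGACATCA was in Jun alone of the 7, at 45 to 38 bases before the start, and in 2.93% of the promoters. The full palindrome TGACGTCA, which contains TGACG, and the AP-1 site TGAGTCA were in none of the 7 windows, against 1.55% and 4.46% of the promoters. For Fosl2, Jund and Atf3 the RefSeq start lies well away from the gene start in the GENCODE annotation, and other starts were not searched. A match is a description of these letters and shows no binding.

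All 7 members were lower in KA than in saline EGFP- cells, past the fold for each of the 7, in a comparison of 36 with 27 cells. Of 8859 measured genes 9.88% were lower past the fold and 30.0% higher, and their median difference was 0.46. The order of the members depends on the measure: Fos, Jun and Fosb had the lowest differences in mean level. With counts summed over cells Fosb was at -2.05, Junb at -1.59, Fosl2 at -1.38, Fos at -1.20 and Jun at -1.07, while Atf3, at -0.90, and Jund, at -0.77, were not past the fold, and the median of all measured genes was 0.16. Single cells weigh heavily in these sums: the deepest KA EGFP- cell had 56183007 counts, against a group median of 5523526.5. The top KA EGFP- cell of each gene held 28.4% of the summed Jun counts, 28.3% of Atf3 and 23.4% of Jund. The order of the sums without such cells was not computed. With cells of at least 3000 genes alone Atf3 was the lowest, at -3.44.

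Fos had 0, 532 and 3260 CPM as its lowest, median and highest value in KA EGFP- cells, against 0, 2002 and 10615 CPM in saline EGFP- cells. The groups overlapped, and the highest saline cells lay above every KA cell. The mean level was 7.27 ± 4.35 in KA and 9.81 ± 3.14 in saline EGFP- cells (SD over cells), a difference of -2.54, and 1.14% of measured genes had a lower difference.

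Fosb had 0, 9.20 and 273 CPM in KA EGFP- cells, against 0, 85.6 and 895 CPM in saline EGFP- cells, a difference in mean level of -2.25. Fosl2, the member that encodes the Fos-related protein Fra-2, had 0, 4.07 and 203.5 CPM in KA EGFP- cells, against 0, 39.5 and 465.9 CPM in saline EGFP- cells, a difference of -1.29. Fosb was counted in 24 of 36 KA cells, at a median of 45.6 CPM in those, and in 25 of 27 saline cells, at 115 CPM. By title series the median where counted was 36.6 CPM in the first (16 of 21 KA cells) and 107 CPM in the second (8 of 15). The values where it was counted overlapped, at 2.30 to 144 CPM in the first series and 4.35 to 273 CPM in the second. Fosl2 was counted in 20 of 36 KA cells at a median of 29.1 CPM, and in 17 of 27 saline cells at 133 CPM.

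Among the Jun genes, Jun had the lowest difference in mean level, though not with summed counts. It had 0, 11.7 and 1036 CPM in KA EGFP- cells, against 0, 187 and 2964 CPM in saline EGFP- cells, a difference in mean level of -2.34. Where it was counted its median was 277 CPM in 22 of 36 KA cells and 255.3 CPM in 22 of 27 saline cells, with mean levels of 6.77 ± 2.95 in those KA cells and 7.95 ± 2.37 in those saline cells (SD over cells). In those KA cells the median was 291 CPM in the first title series (17 of 21 cells) and 18.1 CPM in the second (5 of 15). Junb, a member that restrains Jun on some targets, had 0, 351 and 3063 CPM in KA EGFP- cells, against 0, 1117 and 4987 CPM in saline EGFP- cells (difference -1.15). Junb was counted in 32 of 36 KA cells, at a median of 381 CPM in those, and in 23 of 27 saline cells, at 1231 CPM. In the second series it was counted in 11 of 15 KA cells, at a median of 373 CPM.

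Jund had 0, 216.9 and 938 CPM in KA EGFP- cells, against 3.73, 320 and 3452 CPM in saline EGFP- cells (difference -1.10), and with SDs of 2.36 and 1.66 it varied least between cells in both groups. Of the exon bases of Jund 52.6% are shared with the antisense transcript Gm11175, and the libraries carry no strand, so reads of the pair cannot be told apart: Gm11175 differed by -1.13. Smaller overlaps are those of Junb with Prdx2 (7.5% of its exon bases) and of Jun with Junos (7.3%). Atf3 had 0, 240 and 1845 CPM in KA EGFP- cells, against 0, 851 and 2912 CPM in saline EGFP- cells, a difference of -1.90, with 23 of 36 KA and 20 of 27 saline cells having a count.

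**Figure D1:**
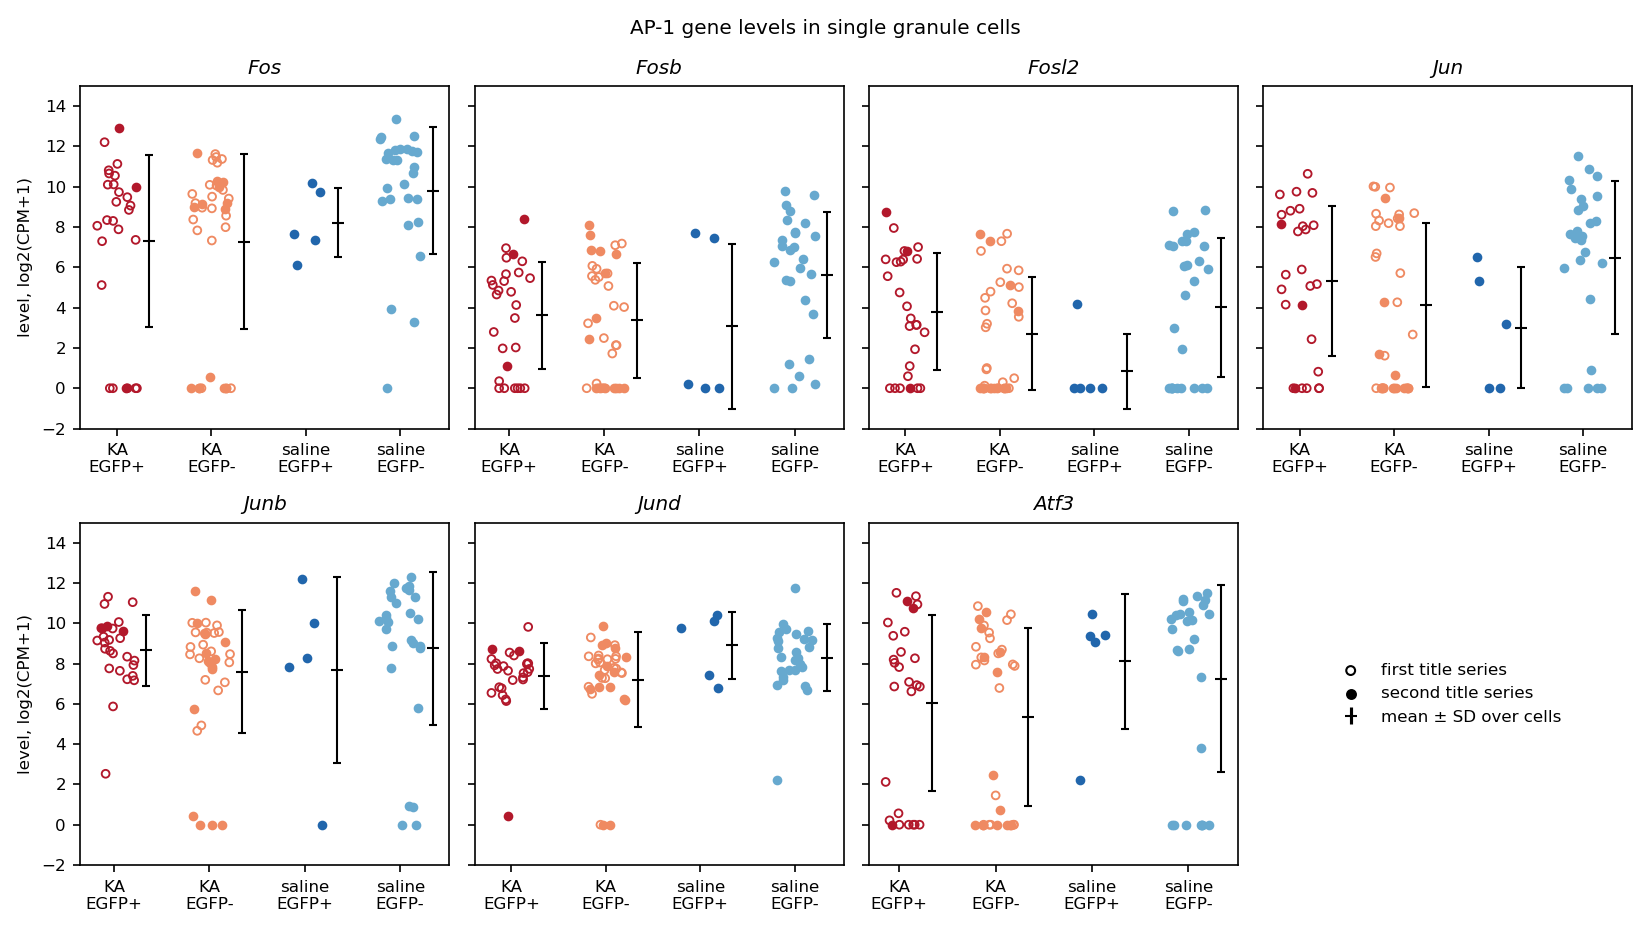
Level of each AP-1 gene, log2(CPM+1), in each of 27 KA EGFP+, 36 KA EGFP-, 5 saline EGFP+ and 27 saline EGFP- cells (points; open, first title series; filled, second), with the mean ± SD over cells beside them. Each gene had cells at or near 0 and cells at high levels; for Fos the highest saline EGFP- cells reached 10615 CPM and the highest KA EGFP- cell 3260 CPM.

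The 2 title series of KA cells differed in AP-1 genes, and this bears on the size of the difference from saline. Within the second series, where 15 KA EGFP- cells stand beside the same 27 saline cells, all 7 members were again lower past the fold, but so were 37.8% of 7571 measured genes (9.43% were higher), with a median of all genes of -0.62. Jun was at -4.84 and Fos at -4.55 there, with 0.17% and 0.36% of measured genes lower still, Atf3 at -3.38, Fosb at -2.44, Fosl2 at -2.41, Junb at -2.22 and Jund at -1.59. Jun had a median of 0 CPM in these KA cells and was counted in 5 of 15, or 33.3% (Clopper-Pearson 95% interval 11.8 to 61.6%), against 22 of 27 saline cells, or 81.5% (61.9 to 93.7%). Fos was counted in 9 of 15 KA cells, or 60% (32.3 to 83.7%), against 26 of 27 saline cells, or 96.3% (81.0 to 99.9%). These intervals treat cells as independent and leave out differences between mice. With counts summed over cells, so that cells with more counts weigh more, the differences were smaller, -2.02 for Fos and -1.95 for Jun, and Jund, at -0.89, was not past the fold.

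The 21 KA EGFP- cells of the first series, set against the same saline cells, were lower past the fold for 2 members, Fosb at -2.11 and Fos at -1.11. The others lay at -0.84 (Atf3), -0.75 (Jund), -0.55 (Jun), -0.49 (Fosl2) and -0.38 (Junb). In that comparison 5.81% of 9331 measured genes were lower past the fold, 53.9% were higher, and the median of all genes was 1.13, so all 7 members stood below that median as they did in the second series. No saline cell is in the first series, so that the effect of KA and that of the series cannot be told apart in this value.

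**Figure D2:**
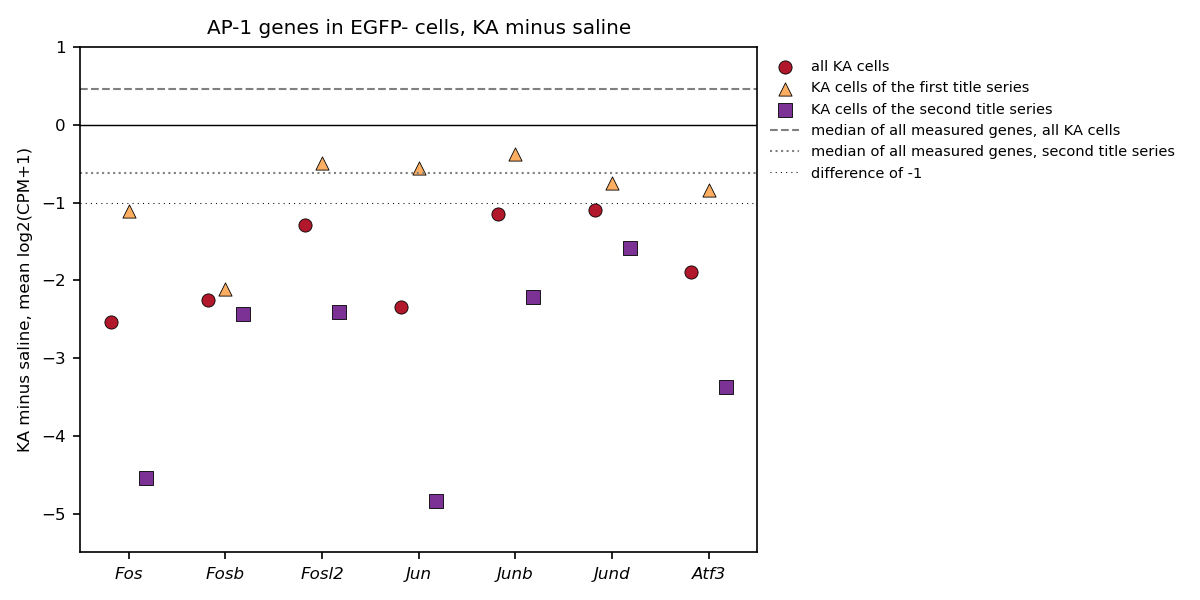
Difference in mean level, log2(CPM+1), of KA minus saline EGFP- cells for each AP-1 gene, with all 36 KA cells (circles), the 21 of the first title series (triangles) and the 15 of the second (squares), each against the same 27 saline cells. All points lie below 0, and those of the second series are the lowest for each gene, down to -4.84 for Jun; dashed and dotted grey lines mark the medians of all measured genes, 0.46 and -0.62.

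Set directly against each other, KA EGFP- cells of the first series were higher than those of the second for all 7 members and past the fold for 5: Jun by 4.29, Fos by 3.44, Atf3 by 2.54, Fosl2 by 1.92 and Junb by 1.84. Jund differed by 0.84 and Fosb by 0.33. Here 71.5% of 9003 measured genes were higher past the fold, 1.53% lower, and the median of all was 1.67, so the count of members is no larger than that of genes at large, and Fosb and Jund lay below the median. With summed counts 1 member, Jun at 1.06, was past the fold, and Fosl2 and Junb were at -0.24 and -0.79, higher in the second series: the high Junb cells there reached 3063 CPM, against 1045 CPM in the first. The deepest cell, with 56183007 counts, is in the first series and weighs heavily in its sums.

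The second series runs through 3 stretches of KA titles and 3 stretches of saline titles, which alternate. What a stretch stands for is not given in the labels. Mean Fos levels were 6.22, 0 and 5.83 in the KA stretches (8, 2 and 5 EGFP- cells), against 10.58, 10.11 and 9.38 in the saline stretches. Mean Jun levels were 1.93, 4.22 and 0.13 in the KA stretches, against 6.76, 5.72 and 6.67 in the saline stretches. For 5 members (Fos, Fosb, Jun, Jund and Atf3) every KA stretch lay below every saline stretch, which held for 15.8% of 7571 measured genes, and for Fosl2 and Junb the stretches overlapped. Atf3 was uneven among the saline stretches as well, at 9.28, 8.10 and 6.10.

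**Figure D3:**
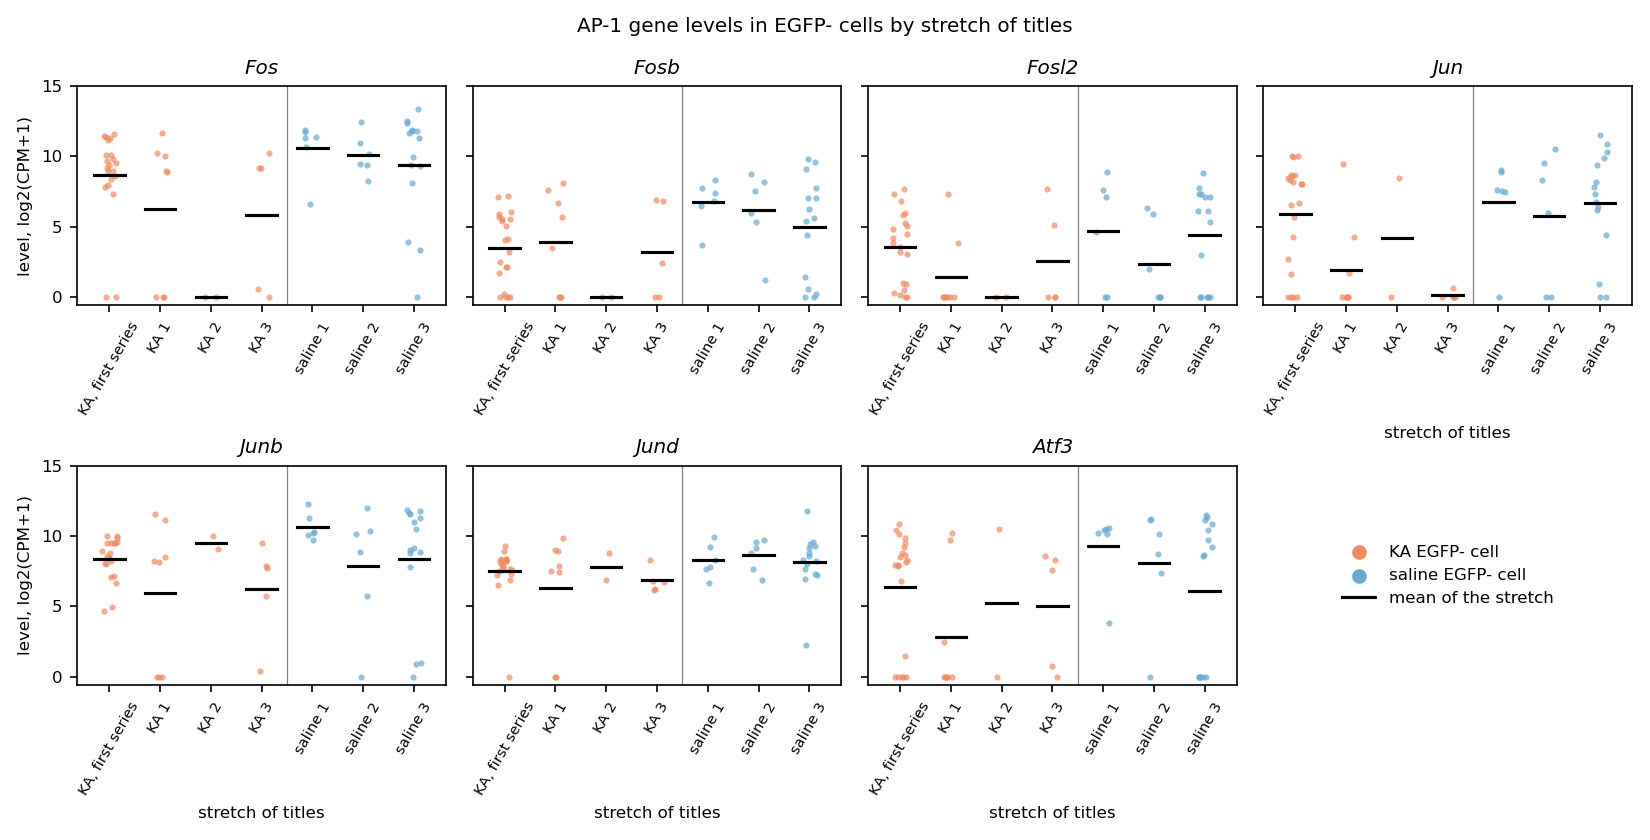
Level of each AP-1 gene, log2(CPM+1), in EGFP- cells (points) by stretch of title numbers, KA stretches left of the grey line and saline stretches right of it, with the mean of each stretch as a bar. The means of Fos in the second series lie between 0 and 6.22 in KA stretches and between 9.38 and 10.58 in saline stretches, and the KA cells of the first series lie between, at 8.70.

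Transcripts that mark other cell types were counted as well. Microglial markers (16 listed, all in the table and none at 0 in any group) summed to 0 to 55784 CPM in KA EGFP- cells, with a median of 133, and to 0 to 53766 CPM in saline EGFP- cells, with a median of 269.15. Of 13 measured, 11 were lower and 0 higher past the fold in KA EGFP- cells (median difference -2.06), against 2 of 14 lower and 0 higher in the second series (median -0.66). Of 11 interneuron markers listed, 10 had count data and 2 were measured. These 2, the GABA synthesis genes Gad1 and Gad2, were higher, at 1.59 (second series 0.64) and 2.48 (3.92). Others of the list did not go with them: Slc32a1, Sst, Vip, Dlx1 and Nxph1 were at 0 in every KA EGFP- cell. Vip, Erbb4 and Nxph1 were at 0 in every saline EGFP- cell. In saline EGFP- cells Fos ran against the microglial share (Spearman's rho -0.60 over 27 cells), the most of the 7 members. The others had -0.325 (Fosl2), -0.32 (Fosb), -0.32 (Junb), -0.30 (Jun), 0.04 (Atf3) and 0.31 (Jund). Over the 36 KA EGFP- cells Fos had -0.21. With the cells under 0.1% microglial counts alone (30 KA and 15 saline cells) the differences were larger for 5 members, among them Fos at -3.36, Jun at -3.43 and Fosb at -3.72, while Atf3 was at -1.26 and Jund, at -0.84, was not past the fold. With cells of at least 3000 genes alone (30 KA and 22 saline cells) all 7 members were past the fold, from -1.25 for Jund to -3.44 for Atf3. Of 13 measured granule cell markers 7 were lower and 2 higher past the fold, against 8 lower and 0 higher in the second series. Of 10 housekeeping genes 2 were lower (Actb at -1.36 and Eef1a1 at -1.01) and 2 higher (Gapdh at 2.32 and Ppia at 2.02), against 7 lower and 0 higher in the second series. The part of these genes in the result was not tested.

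Cells also differed in how many of the 7 genes they had. The median was 5 members counted in KA EGFP- cells and 6 in saline EGFP- cells, and all 7 were counted in 11 of 36 KA cells, against 13 of 27 saline cells. By title series all 7 were counted in 10 of 21 KA EGFP- cells of the first and 1 of 15 of the second. After the same thinning, the median number of all genes counted was 5052 in KA EGFP- cells and 4217 in saline EGFP- cells. Within the KA EGFP- cells it was 6348 in the first series and 3310 in the second. The part of gene detection at large in the member counts of this paragraph was not tested. Fos and Jun, the classical pair, were both counted in 19 of 36 KA EGFP- cells and in 22 of 27 saline EGFP- cells; in the KA cells this was 16 of 21 in the first series and 3 of 15 in the second. Cells with Fos and no Jun numbered 9 of 36 after KA and 4 of 27 after saline, cells with Jun and no Fos 3 and 0. No Fos family member was counted in 3 KA EGFP- cells and no Jun family member in 1, against 0 and 0 saline EGFP- cells.

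**Figure D4:**
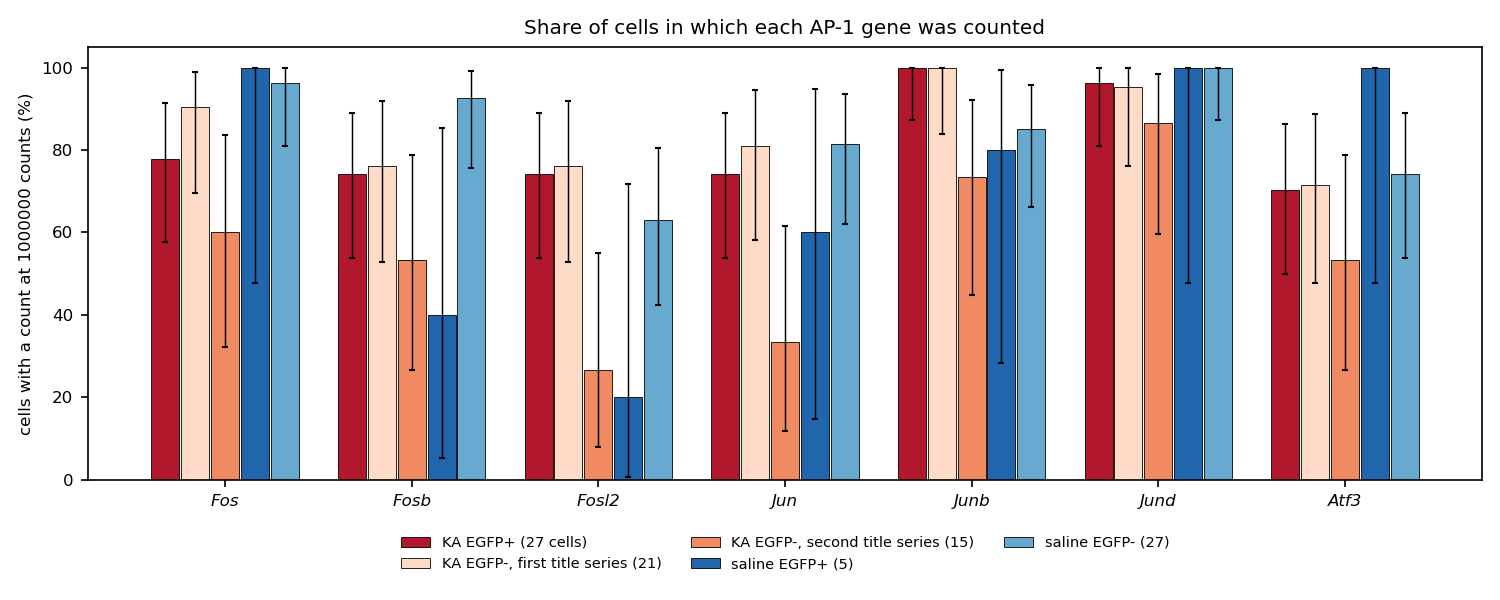
Share of cells (%) in which each AP-1 gene was counted after thinning to 1000000 counts, with Clopper-Pearson 95% intervals over cells, for KA EGFP+ cells, KA EGFP- cells of either title series, saline EGFP+ cells and saline EGFP- cells. Jun was counted in 81.0% of KA EGFP- cells of the first title series, 33.3% of those of the second and 81.5% of saline EGFP- cells.

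The makeup of each family within a cell was compared as shares of its summed CPM per kilobase. These shares use the counts before thinning, so the number of cells with a family can exceed that above. Fos made up a median of 97.5% of the Fos family (Fos, Fosb, Fosl2) in KA EGFP- cells and 96.5% in saline EGFP- cells, and it led in 27 of 34 KA and 26 of 27 saline cells with the family. In the second series Fosb led in 4 and Fosl2 in 1 of 13 KA EGFP- cells, and Fos in 8. The Jun family (Jun, Junb, Jund) was more even. Junb made up a median of 47.6% in KA and 58.4% in saline EGFP- cells and led in 19 of 35 and 17 of 27 cells. Jund made up 36.2% in KA and 24.9% in saline EGFP- cells, and Jun 0.573% in KA and 5.54% in saline EGFP- cells. By title series, the median share of Jun in KA EGFP- cells was 16.04% (first) and 0 (second).

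Across cells the members ran together loosely. Spearman's rho between pairs had a median of 0.29 in KA EGFP- cells, with 19 of 21 pairs above 0, and of 0.35 in saline EGFP- cells, with 20 of 21 above 0. Within the title series of KA EGFP- cells the median was 0.40 in the first (15 of 21 pairs above 0) and 0.05 in the second (13 of 21). The largest were 0.59 for Fos with Atf3 in KA EGFP- cells, and 0.59 for Fos with Junb and 0.58 for Fos with Fosb in saline EGFP- cells. For Fos with Atf3 the 27 KA EGFP+ cells gave 0.62. By title series of KA EGFP- cells Fos with Atf3 had 0.81 in the first and 0.31 in the second, and Fos with Fosb 0.83 in the first and 0.01 in the second. The points share library quality, which rho does not remove: in KA EGFP- cells Jun had 0.64 with the number of genes counted, and KA cells of the 2 series differ in it.

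**Figure D5:**
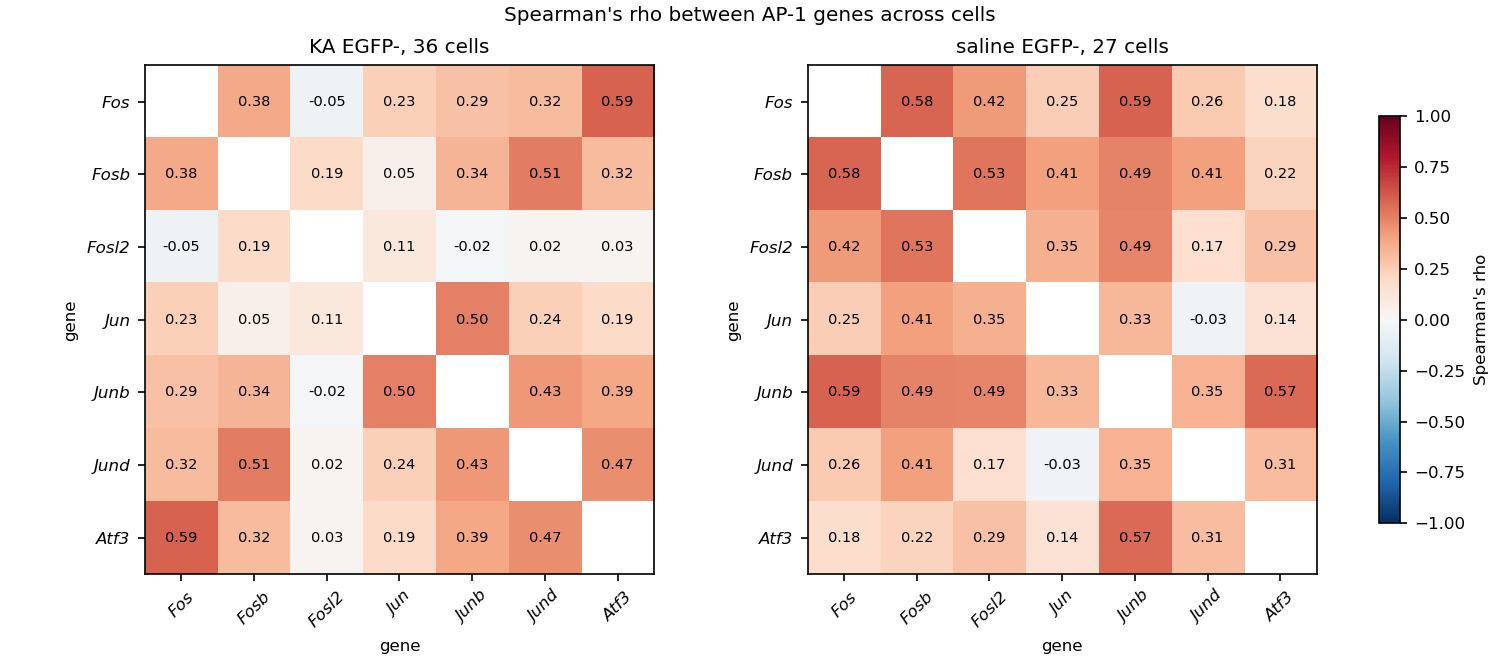
Spearman's rho between the levels of each pair of AP-1 genes across 36 KA EGFP- cells and 27 saline EGFP- cells. Fos with Atf3 had 0.59 in KA and 0.18 in saline cells, and Fos with Junb 0.29 in KA and 0.59 in saline cells.

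Among 3162 genes counted in at least 50% of saline EGFP- cells, those most like Fos across those 27 cells were Btg2, an antiproliferative immediate early gene (rho 0.79 in KA and 0.75 in saline EGFP- cells), Unc80, a subunit of a sodium leak channel (0.16 in KA, 0.71 in saline), Egr1, a zinc finger immediate early gene (0.50 in KA, 0.69 in saline), Faim2, an inhibitor of Fas-induced death (-0.05 in KA, 0.68 in saline), and Plk2, an activity-induced kinase (-0.01 in KA, 0.66 in saline). The median of all 3162 genes in saline cells was 0.01. Those most like Junb were Egr1 (0.32 in KA, 0.82 in saline), the orphan receptor gene Nr4a1 (0.24 in KA, 0.73 in saline), the activity-induced protocadherin gene Pcdh8 (0.10 in KA, 0.72 in saline), Egr2 (0.20 in KA, 0.71 in saline) and Tstd2 (0.24 in KA, 0.70 in saline). Among members, Junb ranked 14th and Fosb 18th in likeness to Fos, while Fosl2 ranked 104th, Jund 457th, Jun 500th and Atf3 754th.

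After KA, EGFP+ and EGFP- cells of the first title series differed by less than the fold in 6 of the 7 genes. So did most of the 10155 measured genes, of which 19.8% were lower and 6.18% higher past the fold. Over all 27 EGFP+ and 36 EGFP- cells, Fosl2, Jun and Junb were higher past the fold in EGFP+ cells, by 1.09, 1.20 and 1.06, where 16.4% of 9470 measured genes were higher and 4.14% lower past the fold; Atf3 differed by 0.67, Fosb by 0.25, Jund by 0.19 and Fos by 0.04. Microglial markers were higher past the fold in EGFP+ cells for 11 of 12 measured (median difference 1.61), and 10 of 27 EGFP+ cells, against 6 of 36 EGFP- cells, held at least 0.1% microglial counts; their part in the result was not tested. In titles 1 to 48 (24 EGFP+ and 21 EGFP- cells) none of these 3 was past the fold: Junb was at 0.16, Fosl2 at 0.11 and Jun at -0.43. All 11 measured microglial markers were higher past the fold in EGFP+ cells there, and 10 EGFP+ cells and 0 EGFP- cells held at least 0.1% microglial counts. Fos alone was past the fold there, at -1.44, with 19.8% of 10155 measured genes lower and 6.18% higher past the fold. Its values in those titles were 0, 392 and 4737 CPM in EGFP+ cells, against 0, 681 and 3149 CPM in EGFP- cells, and the groups overlapped almost throughout. In titles 20 to 48, the stretch that holds both classes (5 EGFP+ and 21 EGFP- cells), Fos was at -1.26 and Atf3 at -1.40, where 29.9% of 9763 measured genes were lower and 16.1% higher past the fold.

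In the second series 3 KA EGFP+ cells stood beside 15 EGFP- cells. Their Fos values were 1023, 0 and 7835 CPM and their Junb values 785, 861 and 923 CPM, and the third cell had the highest Fos of all 63 KA cells. Of the 7 members 6 were higher past the fold in EGFP+ cells (Fosl2 by 3.59, Atf3 by 3.41, Junb by 3.21, Jun by 2.46, Fos by 2.38 and Fosb by 2.21), Jund was at -0.77, and 36.6% of 6607 measured genes were higher and 25.3% lower past the fold. Of 14 measured microglial markers 10 were lower past the fold in EGFP+ cells there. Junb was counted in all 27 KA EGFP+ cells, at a lowest value of 4.77 CPM and a highest of 2547 CPM. KA EGFP+ cells had a median of 6 members counted, and all 7 were counted in 12 of 27.

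After saline, the 5 EGFP+ cells had lower mean levels of Fos, Jun, Fosb and Fosl2 than EGFP- cells. Fos was at 166, 860, 68.2, 203.03 and 1148 CPM in the 5 EGFP+ cells, against a median of 2002 CPM in the 27 EGFP- cells, a difference in mean level of -1.59. Jun was at 90.9, 0, 38.8, 7.98 and 0 CPM in the same 5 cells, against a median of 187 CPM, a difference of -3.48. All 5 EGFP+ cells lay below the median EGFP- cell in both genes and in Fosl2 (median 39.5 CPM), but not in the other members. How many of all measured genes do so was not counted, and 42.6% of 8030 were lower past the fold. Of 8030 measured genes, 26.8% had a lower difference than Fos and 2.81% a lower one than Jun.

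Fosb was at 0.164, 172, 204.09, 0 and 0 CPM in the saline EGFP+ cells, against a median of 85.6 CPM in EGFP- cells (difference -2.55). Fosl2 was at 0 in 4 cells and at 17.2 CPM in the fifth (difference -3.17). Junb was at 228.7, 1048, 310, 4677 and 0 CPM (difference -1.08), and without the fifth cell it was 0.84 higher in EGFP+ cells, so that its direction rests on that cell. Atf3, at 661, 530, 672, 3.63 and 1424 CPM (difference 0.85), and Jund, at 869, 1099, 109, 1353 and 174 CPM (difference 0.61), were not past the fold. The 5 members past the fold stand beside 42.6% of 8030 measured genes that were lower past the fold and 12.7% that were higher, with a median of all genes of -0.71. With TMM scaling, which put the median of all genes at -0.47, Fos (-0.83) and Junb (-0.37) were no longer past the fold, and Atf3 (1.68) and Jund (1.36) were higher past it; with summed counts Fosb just missed it, at -0.999. All 5 EGFP+ cells held over 0.1% microglial counts (5280 to 49986 CPM, median 29018), as did 12 of the 27 EGFP- cells (0 to 53766 CPM over all, median 269.15); the part of these in the result was not tested.

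Between KA and saline EGFP+ cells (27 and the same 5), the members did not move together. Fosl2 and Jun were higher past the fold after KA, by 2.97 and 2.34, where 60.4% of 9570 measured genes were higher past the fold with a median of all genes of 1.38. Atf3, at -2.07, and Jund, at -1.52, were lower past the fold, as were 8.59% of measured genes. Junb was at 0.99, Fosb at 0.55 and Fos at -0.91, with Fos medians of 460 CPM in KA and 203.03 CPM in saline EGFP+ cells. With counts summed over cells Fos was at 1.23 and Fosb at -1.45, both past the fold with the sign turned, and with TMM scaling Fos was at -1.83. The direction of Fos and of Fosb between these groups thus changes with the measure. Median microglial counts were 0.0183% in KA and 2.90% in saline EGFP+ cells, and 24 of the 27 KA cells are of the first title series. With the 3 KA EGFP+ cells of the second series alone, 4 members were higher past the fold (Fosl2, Fosb, Junb and Jun) and Jund, at -2.97, was lower, among 39.0% of 7910 measured genes higher and 29.4% lower past the fold.

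The other genes of the pathway were taken from lists, whose counts stand against the 9.88% of all measured genes that were lower and the 30.0% that were higher past the fold between KA and saline EGFP- cells, and against 37.8% lower and 9.43% higher in the second series. Of 24 measured immediate early genes outside the family, 10 were lower and 4 higher past the fold in KA than in saline EGFP- cells, and 16 of 25 lower and 1 higher in the second title series. Among them Egr4, a zinc finger factor, was at -3.73 (second series -4.67), Klf2, a Krüppel-like factor, at -3.37 (-4.82), Arc, whose protein regulates AMPA receptor uptake, at -1.62 (-4.34) and Tiparp, an ADP-ribosyltransferase gene, at -1.61 (-4.88). Of 13 measured dimer partners and related leucine zipper genes outside the 7, 1 was lower past the fold (Atf6, an endoplasmic reticulum stress factor, at -1.06) and 1 higher, against 6 of 12 lower and 0 higher in the second series. Fosl1, which encodes the remaining Fos family protein Fra-1, was counted in 4 of 36 KA and 4 of 27 saline EGFP- cells and was not measured by the 20% rule.

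Of 33 measured genes upstream of AP-1 (kinases, calcium sensors and factors that act on Fos and Jun), 6 were lower and 10 higher past the fold after KA in EGFP- cells, and 14 of 30 lower and 3 higher in the second series, with a median of 0.57 over all cells and -0.82 in the second series, close to the 0.46 and -0.62 of all measured genes. The genes named here were picked by size in the second series and are all lower, unlike the 10 that were higher over all cells. Camkk1, a kinase that activates CaM kinases, was at -3.12 (second series -5.39), Mapk3, the kinase ERK1, at -2.32 (-3.39), Srf, the serum response factor that binds the Fos promoter, at -1.46 (-2.72), and Map2k2, a kinase that activates ERK, at -1.45 (-3.23). Of 21 measured feedback genes, 5 were lower and 8 higher past the fold, and 9 of 20 lower and 2 higher in the second series, with medians of 0.63 and -0.72, again close to those of all measured genes. Btg2 was at -3.09 (-5.15), Btg1, its relative, at -2.29 (-2.76), Dusp8, a phosphatase of the Jun kinases, at -1.08 (-3.68), and Spry1, which damps receptor kinase signalling, at 1.79 (1.94).

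Of 14 measured genes known as AP-1 targets in other settings, 9 were higher and 2 lower past the fold in KA than in saline EGFP- cells, where 30.0% of all measured genes were higher. In the second series 5 of 12 were higher and 3 lower, where 9.43% of all were higher and 37.8% lower, and the median of the list was 0.17. The peptide genes Penk, for enkephalins, at 7.87 (second series 2.53), Cartpt, for the CART peptide, at 7.68 (5.57) and Npy, for neuropeptide Y, at 5.81 (4.99) were higher, and Calb1, which ΔFosB is known to repress, was lower, at -2.65 (-3.19). Heat shock genes were lower past the fold for 5 of 13 measured and higher for 1, and 11 of 12 lower in the second series, with Dnajb1 at -4.02 (-4.22), Dnajb4 at -2.53 (-4.28), Hspa1a at -1.50 (-1.75) and Hspa5 at -1.19 (-3.35). Of 10 measured genes induced by neuronal injury, 3 were lower, among them Gap43, a growth cone protein gene, at -1.48 (-1.46), and 4 higher, with a median of 0.18; in the second series 5 of 8 were lower and 0 higher, with a median of -1.50.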

How the data were processed

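Single granule cells of 115 labelled samples were given, and the 95 cells of the deposited table of cells that passed quality control (QC) were used, treatment and EGFP class being read off the labels unchanged. The deposited values are whole-number read counts per gene symbol from Nextera XT libraries without molecular identifiers or strand, and, as an alternative, the authors' normalized signal, which is the count times 1 factor per cell whose making is not stated. Trimmomatic, STAR, featureCounts and kallisto on GRCm38 are named in the submitters' processing notes, with no role or version. Spike-in rows (92, with 6 counts) were left out. Of the 20 cells left out, 12 are labelled as passed; their median total was 474183 counts. No 2 kept cells had identical counts.

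CPM is the count over the cell's total, times 1000000; differences are of mean log2(CPM + 1). Cells were thinned to 1000000 counts for shares, with exact (Clopper-Pearson) 95% intervals, which cover neither mice nor amplification. No p-value was computed. Genes other than the members were named by rule: a difference of at least 1 both over all cells and in the second title series with the same sign, the 4 largest per list there, and the 5 genes most like Fos and Junb across saline EGFP- cells. The members and lists were chosen with earlier results of these data known. Exon overlaps and positions come from GENCODE M21 (22566 of 22870 names matched) and promoters from RefSeq. Python 3.11.15, pandas 2.3.3, numpy 2.4.6, scipy 1.17.1, matplotlib 3.10.9 and edgeR 4.0.16 (TMM scaling only) were used, and the scripts were tested on simulated data. Alternatives were pseudocounts of 0.1 and 10 CPM, the authors' signal, TMM, thinned and summed counts, cells also labelled as passed, cells under 0.1% microglial counts, single title series, each saline EGFP+ cell left out, and no filter on low counts. Added after seeing the data were cells with at least 3000 genes, each cell left out in turn, and first-series KA cells against saline cells.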

Additional observations from a re-analysis of the deposited data

Results flagged for a closer look

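Of 7 sets of values looked at, the 5 saline EGFP+ cells for each gene, 2 held a cell far from the others, by the rule that its gap to the nearest cell is large against the range of the 5. About 1 set in 20 is picked out so by chance where values are spread out, which does not apply to Fosl2: its highest cell was at 4.19 on the log2(CPM+1) scale and the other 4 cells at 0, so that any value in the fifth would be picked out. For Atf3 the lowest cell was at 2.21, with a gap of 0.828 of the range; without it Atf3 was 2.32 higher in EGFP+ than in EGFP- saline cells, against 0.85 with it.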

How the results depend on the processing

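No member changed sign between KA and saline EGFP- cells under any alternative run, and at least 5 of 7 were lower past the fold in each, except that 2 were with KA cells of the first title series alone (cause not tested). With any 1 of the 63 cells left out, 5 to 7 were lower: Junb (-1.48 to -0.93) and Jund (-1.33 to -0.89) lost the fold in 4 of the 63 cases each. In the second title series all 7 stayed lower with any 1 of 42 cells left out.

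For EGFP+ against EGFP- KA cells, the 3 members higher past the fold became 0 with a pseudocount of 10 CPM, with summed counts and with cells of at least 3000 genes. In the first title series 0 were higher and 1 lower, with Jun at -0.43; in titles 20 to 48, 0 were higher and 2 lower, with Fosl2 at -0.41; in the second series 6 were higher. The causes were not tested. For EGFP+ against EGFP- saline cells (5 lower, 0 higher), TMM scaling gave 3 lower and 2 higher, and a pseudocount of 0.1 CPM or the authors' signal gave 1 higher. Leaving out each of the 5 cells gave 0 to 1 higher, with Junb at -2.21 to 0.84. For KA against saline EGFP+ cells (2 lower, 2 higher), 4 were higher with a pseudocount of 0.1 CPM or cells of at least 3000 genes, 1 lower and 4 higher with cells also labelled as passed and in the second series, and 2 to 4 higher with each saline cell left out. Between the KA title series, summed counts gave 1 member higher in place of 5, with Fosl2 at -0.24 and Junb at -0.79. With no filter on low counts 6.05% of 17331 genes were lower past the fold in KA than in saline EGFP- cells, which is 1049 genes against 875 with it. No saline EGFP+ cell was under 0.1% microglial counts, so that alternative gave no value there. No paired analysis was possible because the labels carry no replicate numbers or mice, and no test was made.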

Other observations

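The 20 cells outside the table of passed cells are in the table of all cells. They were not thinned, and their median total was 474183 counts, so a gene is given here as present if it had any count. Fos was present in 10, Junb in 12, Jund in 11, Fosb in 7, Atf3 in 6, Jun in 4 and Fosl2 in 3 cells. The mean level of each member was below that of saline EGFP- cells. Fos averaged 4.70 ± 5.35 in these 20 cells and 9.81 ± 3.14 in the 27 saline EGFP- cells (SD over cells). The 20 cells come from both treatments and both EGFP classes, and neither group nor depth was matched in this comparison. Their highest values reached 6615 CPM for Fos and 4109 CPM for Atf3.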
